A study of Mus musculus with 2 samples.

Results

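Interferon-induced genes and the receptors and transcription factors that control them were compared between epidermal keratinocytes labelled as lacking the vitamin D receptor (VDR) and keratinocytes of their controls. The set held 45 named genes, in 3 groups by role: 26 type I antiviral genes, 7 GTPase genes typically induced by interferon gamma, and 12 regulators. A probe was matched to 44 of the 45, out of 17871 genes on the array, and the brightest probe by mean signal stood for each gene. Only 34 of the 45 names occur as symbols in the deposited table, because its symbols are old. The other 11 were found under older symbols through gene numbers or accessions (Isg15 as G1p2, Irf9 as Isgf3g, Irgm1 as Irgm, Eif2ak2 as Prkr and Dhx58 as D11Lgp2e among them). The probes filed as Gbp4 carry the gene number of Gbp3, those filed as Gbp6 carry that of Gbp7, and Gbp4 itself stands as Mpa2, so Gbp6 was not analysed here.

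The VDR KO group had the genotype VDR fl/fl K14 driven Cre, in which a Cre recombinase under the keratin 14 promoter acts in basal epidermal cells and their descendants. The VDR CON group were VDR fl/fl littermates without the recombinase. All mice were 3 months old and ate a diet low in calcium, and each group was 1 Illumina bead array with RNA pooled from the skin of 3 mice. There are therefore no replicates, no difference could be tested, and a fold threshold of 1.5 serves only to count genes. The probe of Vdr did not check the genotype, with a signal of 2928.3 on the VDR KO array and 2626.3 on the VDR CON array, since the labels do not say which part of the gene was deleted. The sex-linked transcripts differed between the arrays, Xist with 1943.3 against 994.1 and Ddx3y with 258.1 against 924.8 (VDR KO against VDR CON), so that sex composition and genotype cannot be told apart.

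Type I interferons signal through the receptor chains Ifnar1 and Ifnar2, which activate a complex of STAT proteins with Irf9 that binds the interferon-stimulated response element (ISRE) in front of antiviral genes. Interferon gamma signals through Ifngr1 and its partner chain to STAT dimers that bind the gamma-activated sequence (GAS) and induce Irf1, guanylate-binding proteins (Gbp) and immunity-related GTPases (Igtp, Irgm1, Iigp1). In the epidermis these programmes defend keratinocytes against viruses and are raised in inflamed skin.

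Because Gbp2, Igtp and Irgm1 had higher signals on the VDR KO array, the 250 bases before the starts of these genes and Gbp3 are printed here beside those of Isg15 and Ifit1, a pair of antiviral genes of which the array detected only Isg15. The sequences are RefSeq's (build GRCm38.p6), read 5′ to 3′ along the gene, and capitals mark 2 motifs. The ISRE letters searched, on both strands, were GAAA, any 2 bases and GAAA, and the GAS letters were TTC, any 3 bases and GAA, which read the same on both strands. In Gbp3, Irgm1 and Isg15 the capitals run together because matches overlap.
Gbp2 (chr3:142620413-142620662, plus strand): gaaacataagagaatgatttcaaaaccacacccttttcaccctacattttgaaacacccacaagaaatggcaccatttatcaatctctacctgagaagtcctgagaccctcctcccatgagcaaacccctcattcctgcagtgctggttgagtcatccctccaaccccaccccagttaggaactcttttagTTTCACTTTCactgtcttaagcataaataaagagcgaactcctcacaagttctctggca
Gbp3 (chr3:142559794-142560043, plus strand): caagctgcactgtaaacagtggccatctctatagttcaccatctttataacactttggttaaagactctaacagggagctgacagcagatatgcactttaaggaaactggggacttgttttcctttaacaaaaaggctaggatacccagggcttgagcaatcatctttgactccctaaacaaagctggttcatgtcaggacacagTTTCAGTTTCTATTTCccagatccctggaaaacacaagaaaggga
Igtp (chr11:58199306-58199555, plus strand): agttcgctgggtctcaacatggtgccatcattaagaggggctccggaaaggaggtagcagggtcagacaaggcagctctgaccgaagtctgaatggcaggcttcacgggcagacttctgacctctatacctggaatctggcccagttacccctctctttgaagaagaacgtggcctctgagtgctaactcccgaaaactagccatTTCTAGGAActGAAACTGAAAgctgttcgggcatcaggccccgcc
Irgm1 (chr11:48871421-48871670, minus strand): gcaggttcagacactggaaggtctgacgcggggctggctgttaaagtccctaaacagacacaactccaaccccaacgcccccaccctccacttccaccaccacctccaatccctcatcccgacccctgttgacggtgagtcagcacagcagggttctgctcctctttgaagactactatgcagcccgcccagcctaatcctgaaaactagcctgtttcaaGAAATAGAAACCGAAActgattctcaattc
Isg15 (chr4:156200819-156201068, minus strand): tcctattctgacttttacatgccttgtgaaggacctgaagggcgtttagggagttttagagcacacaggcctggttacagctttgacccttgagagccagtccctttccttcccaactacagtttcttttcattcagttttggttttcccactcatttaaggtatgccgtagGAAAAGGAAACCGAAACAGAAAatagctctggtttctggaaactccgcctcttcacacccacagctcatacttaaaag
Ifit1 (chr19:34640639-34640888, plus strand): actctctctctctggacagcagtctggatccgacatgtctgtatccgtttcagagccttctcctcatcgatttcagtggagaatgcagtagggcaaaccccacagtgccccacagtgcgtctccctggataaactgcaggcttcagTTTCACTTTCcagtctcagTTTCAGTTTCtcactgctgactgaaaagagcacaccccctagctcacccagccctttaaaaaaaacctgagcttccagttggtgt

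All 4 GTPase genes with a promoter in the table, Gbp2, Gbp3, Igtp and Irgm1, held the ISRE letters in a window of 250 bases, against 3.46% of 27025 genes. Counted from the gene start, the Gbp2 match lay at -59 to -50, the Igtp match at -34 to -25, the overlapping pair in Irgm1 at -30 to -15 and that in Gbp3 at -45 to -30. Gbp3 has a further start in the table, whose window held neither motif. Igtp alone among these 4 also held the GAS letters, which occur in 8.13% of all genes. Among the 21 antiviral genes with a promoter, 8 held the ISRE letters and 5 the GAS letters, and among the 12 regulators the counts were 3 and 4. Isg15 held 3 overlapping ISRE matches at -78 to -57 and Ifit1 held 2. Oasl2 and Ifngr1 held neither motif, and Bst2, Ifitm2, Stat2 and Socs1 held the ISRE letters. A link between the letters and the array differences was not tested. A match is a description of letters and not of a bound site, and the promoters of Dhx58, Mx1, Mx2, Oas2, Usp18, Gbp4, Gbp6 and Iigp1 were not used here.

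**Figure D1:**
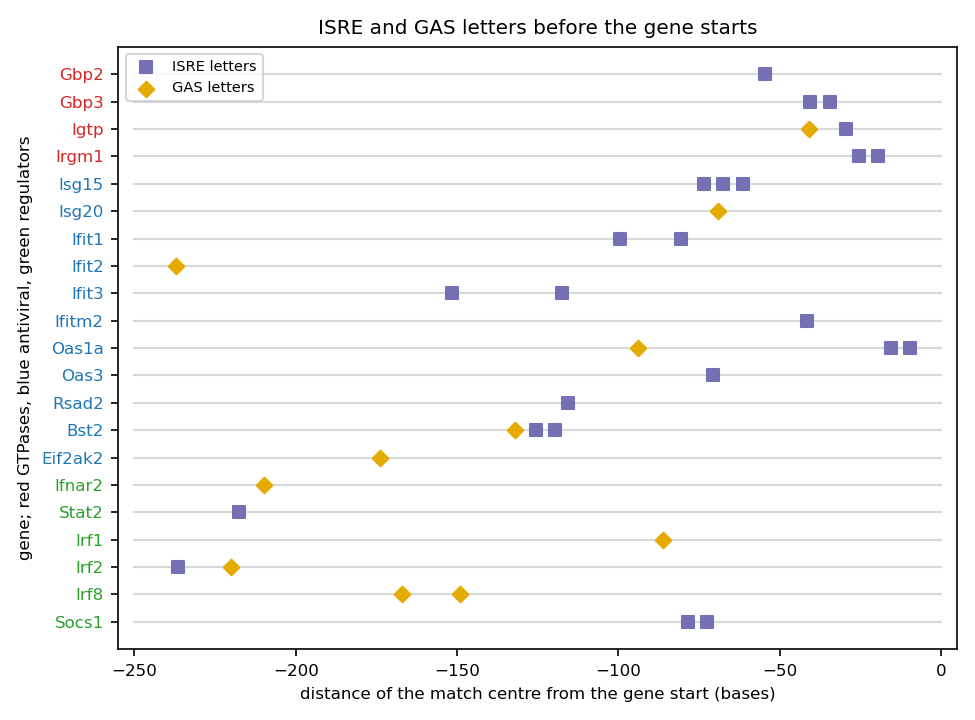
Positions of ISRE letters (squares) and GAS letters (diamonds) in the 250 bases before the starts of the members that hold any; the x axis is the distance from the gene start in bases, with one grey line per gene. The matches of the 4 GTPase genes all lie between -59 and the start, where the ISRE letters of Oas1a (-20 to -5) and Ifitm2 (-46 to -37) also lie, and the matches of Irf2 and Stat2 lie between -241 and -213.

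On the arrays, Gbp2, Irgm1 and Igtp had higher signals in VDR KO keratinocytes, and the regulators lay on both sides of 0. Of 12 detected antiviral genes, 7 differed by less than 0.2 on the log2 scale, as did 6498 of all 9539 detected genes. The antiviral gene Oasl2 (0.54) differed more than Irgm1 (0.44) and Igtp (0.38). A gene was taken as detected when its signal ranked high enough on the array for a detection p under 0.05, and 25 of the 44 genes were detected, 19 on both arrays, 4 on the VDR KO array alone and 2 on the VDR CON array alone. The other 19 were detected on neither and have no usable difference. Over the detected members, the median log2 difference (VDR KO minus VDR CON) was 0.41 for 4 GTPase genes, 0.05 for 12 antiviral genes and 0.03 for 9 regulators, against 0.00 for all 9539 detected genes. Of the antiviral genes 10 were higher on the VDR KO array and 2 lower, 4 of them by more than 0.2 upward and 1 downward. Of the regulators 5 were higher and 4 lower, with 2 beyond 0.2 each way. Among all detected genes 4727 were higher and 4794 lower, with 16.6% at least 0.2 higher and 15.3% at least 0.2 lower. Dhx58, Mx2 and Ifitm1 were detected on the VDR KO array only, and Ddx58 and Socs1 on the VDR CON array only. The detection filter set the direction of these genes. Of the antiviral genes beyond 0.2, only Oasl2 and Isg15 were detected on both arrays. Over genes detected on both arrays, the medians were 0.44 for 3 GTPase genes, 0.05 for 8 antiviral genes and 0.05 for 8 regulators, against 0.00 for all 8393 such genes. One member, Gbp2, differed by at least 1.5-fold in the deposited intensities; among all detected genes 1.36% were at least that much higher and 0.891% at least that much lower, 2.25% in all. The signals are from bulk RNA, in which fewer cells of a type and less RNA per cell cannot be told apart.

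**Figure D2:**
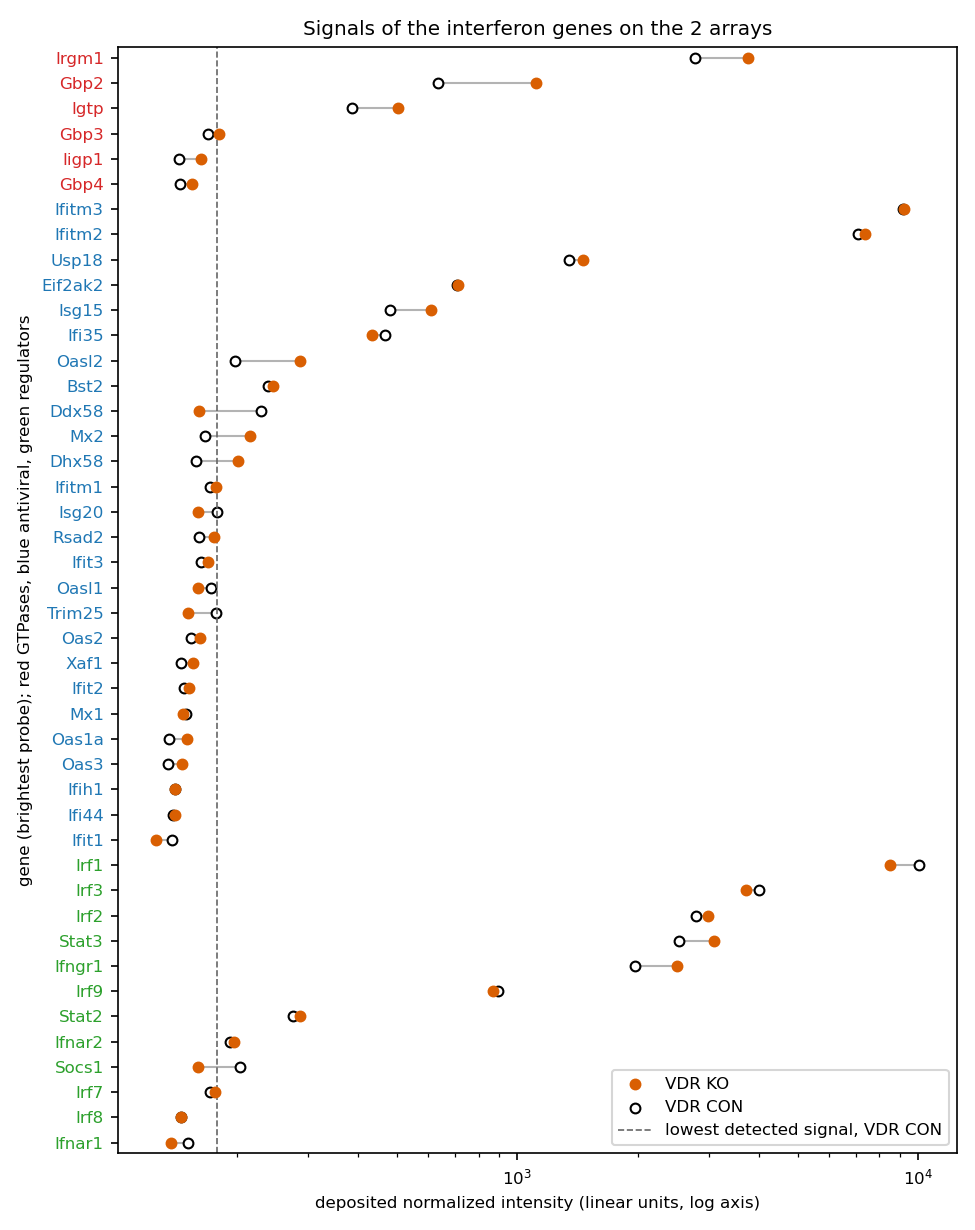
Deposited normalized intensity (log axis) of the brightest probe of each of 44 genes on the VDR KO array (filled) and the VDR CON array (open), grouped as GTPases (red names), antiviral genes (blue) and regulators (green). The dashed line marks 178.5, the lowest signal of a detected probe on the VDR CON array; signals of different genes come from different probes and are not comparable with each other.

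Gbp2, a guanylate-binding protein that assembles on the vacuoles and membranes of intracellular microbes, had a signal of 1110.4 on the VDR KO array and 634.9 on the VDR CON array. This is a log2 difference of 0.81 (1.75-fold), which placed Gbp2 at rank 59 from the top among the 9539 detected genes. Its other probes, at 150.1 against 152.5 and 136.3 against 138.6, were not detected on either array, so the difference rests on 1 probe. Irgm1, an immunity-related GTPase required for autophagic control of intracellular bacteria, had 3766.9 on the VDR KO array and 2767.9 on the VDR CON array, a log2 difference of 0.44 (1.36-fold, rank 302). A further detected Irgm1 probe had 264.1 against 218.5, a log2 difference of 0.27, in the same direction, and the remaining one (133.8 against 145.6) was not detected.

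Igtp, also known as Irgm3, an immunity-related GTPase of the endoplasmic reticulum, had 502.9 on the VDR KO array and 385.9 on the VDR CON array (log2 difference 0.38, 1.30-fold, rank 434). Gbp3, another guanylate-binding protein, was detected on the VDR KO array only, at 180.2 against 168.7, and was at least 1.01-fold higher. Such a bound sets the detected signal against the lowest detected signal of the other array. Gbp4 (153.9 against 144.4) and Iigp1 (162.1 against 142.9), a GTPase that disrupts parasite vacuoles, were detected on neither array. A gene detected on 1 array only had its direction set by the detection filter, so the group's direction rests on Gbp2, Irgm1 and Igtp, the 3 GTPase genes detected on both arrays, which were higher on the VDR KO array by 1.30-fold to 1.75-fold.

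Of the 9 detected antiviral effectors, 8 had higher signals on the VDR KO array and 1 lower, with a median of 0.05. Of the higher ones 3 differed by more than 0.2, against 16.6% of all detected genes. Mx2 and Ifitm1 were detected on the VDR KO array only, so the detection filter set their direction. Oasl2, a member of the oligoadenylate synthetase family that is induced by type I interferon, had 286.9 on the VDR KO array and 197.5 on the VDR CON array, a log2 difference of 0.54 (1.45-fold, rank 173). A further Oasl2 probe, at 149.8 against 141.6, was detected on neither array, so the difference rests on 1 probe. Isg15, a ubiquitin-like protein that is conjugated to other proteins in infected cells, had 607.9 against 480.2 (log2 difference 0.34, 1.27-fold, rank 598). Mx2, a dynamin-like antiviral GTPase, was detected on the VDR KO array only, with 215.6 against 166.4, and was at least 1.21-fold higher. None of these 3 effectors reached 1.5-fold in the deposited intensities.

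Other effectors had nearly equal signals on both arrays. Ifitm3, a membrane protein that blocks the entry of enveloped viruses, had 9232.1 on the VDR KO array and 9175.5 on the VDR CON array (log2 difference 0.01). Its relative Ifitm2 had 7367.5 against 7082.0 (0.06), and Ifitm1 had 176.9 against 171.3 (0.05) and was detected on the VDR KO array only, too close to the detection limit for a bound. Eif2ak2, the RNA-activated kinase that halts translation, had 709.0 against 707.8 (0.00). Bst2, which tethers budding virus particles, had 245.2 against 238.3 (0.04). Ifi35 was slightly lower, with 432.8 against 466.4 (-0.11). These 6 genes covered a wide range of signals, and none differed by more than 0.11.

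Usp18, which removes Isg15 from its targets and shuts off the type I receptor, had 1454.3 on the VDR KO array and 1344.3 on the VDR CON array (log2 difference 0.11). Its other probes gave 795.6 against 777.8 (0.03) and 344.2 against 339.9 (0.02). All 3 probes of Usp18 were detected on both arrays and had the same direction.

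Many of the strongly inducible antiviral genes were not detected on either array. Ifit1, which binds viral RNA ends, had 125.8 on the VDR KO array and 137.8 on the VDR CON array, and Ifit2 and Ifit3 had 151.5 against 147.5 and 169.4 against 162.4. The oligoadenylate synthetases Oas1a, Oas2 and Oas3, which sense double-stranded RNA, had 149.7 against 135.4, 161.1 against 153.0 and 145.4 against 134.6. Mx1 (146.2 against 149.3), Oasl1 (159.5 against 172.2), Rsad2 (175.2 against 160.3), Isg20 (159.6 against 177.7), Ifi44 (140.2 against 138.3) and Xaf1 (155.6 against 144.6) were also not detected. A change in any of these 12 effectors was not detectable at these signals, which is not the same as no change.

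The RNA sensors Ddx58 and Dhx58 were each detected on 1 array only and have a bound only. Ddx58, the gene of the cytosolic sensor RIG-I, was detected on the VDR CON array only, with 160.2 on the VDR KO array and 229.4 on the VDR CON array, and was at least 1.30-fold lower on the VDR KO array. Dhx58, which encodes the related sensor LGP2, was detected on the VDR KO array only, with 200.7 against 157.6, and was at least 1.12-fold higher. Ifih1, the gene of the sensor MDA5 (139.6 against 139.7), and Trim25, a ubiquitin ligase that activates RIG-I (150.5 against 177.4), were detected on neither array.

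**Figure D3:**
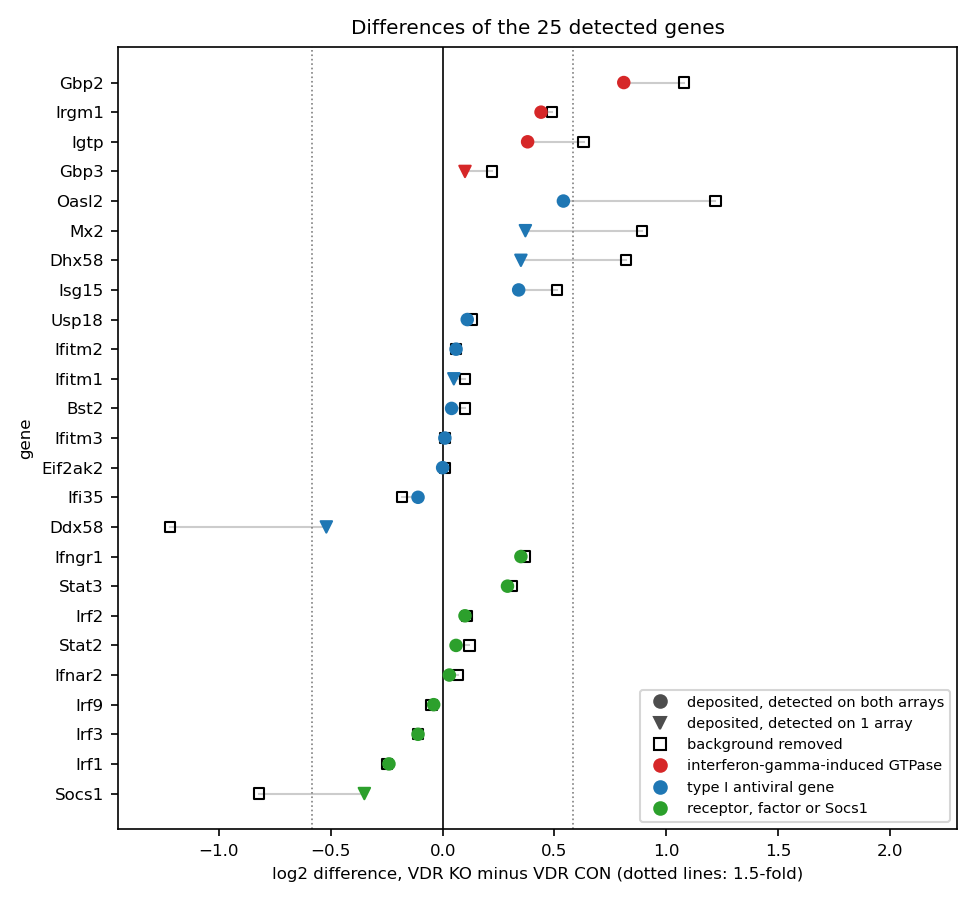
Log2 difference, VDR KO minus VDR CON, of the 25 detected members in the deposited intensities (filled circles where detected on both arrays, triangles where detected on 1) and after removal of the background (open squares); dotted lines mark 1.5-fold. Gbp2 at 0.81 is the only filled marker beyond a dotted line, and removal of the background moves Oasl2 to 1.22 and Ddx58 to -1.22.

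Among the receptors, Ifngr1, the ligand-binding chain for interferon gamma, had 2507.1 on the VDR KO array and 1965.4 on the VDR CON array, a log2 difference of 0.35 (1.28-fold, rank 537). Ifnar2 had 196.1 against 192.0 (0.03), and Ifnar1, at 137.1 against 151.0, was detected on neither array. Ifngr1 was thus higher on the VDR KO array by less than 1.5-fold. Ifnar2 lay close to the lowest detected signals, where the background shrinks differences. Its other probes (155.1 against 159.0 and 157.3 against 135.2) were not detected. The type I chains therefore cannot be contrasted with Ifngr1.

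The transcription factors lay on both sides of 0. Irf1, a gamma-induced activator of many of these genes, had 8503.1 on the VDR KO array and 10033.7 on the VDR CON array (log2 difference -0.24). Its 5 probes, all detected on both arrays, ranged from -0.24 to 0.02. Stat3, which carries signals of interleukin 6 and related cytokines, had 3101.6 against 2536.9 (0.29), but its other probes gave 0.54 and -0.14, a range of 0.68, so the probes of Stat3 disagreed in direction. No probe of Irf1 was higher on the VDR KO array by more than 0.02.

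Irf3, which starts interferon production after viral sensing, had 3718.1 on the VDR KO array and 4015.8 on the VDR CON array (-0.11), but its other probes, detected on both arrays, gave 0.08 and -0.05, so they too disagreed in direction. Irf2, a repressor of many Irf1 targets, had 2991.2 against 2783.8 (0.10). The parts of the type I complex had close values, with 867.8 against 892.8 for Irf9 (-0.04) and 287.5 against 274.9 for Stat2 (0.06). Irf7, the amplifier of type I interferon production (176.3 against 171.5), and Irf8, a factor of myeloid and dendritic cells (145.2 against 144.9), were detected on neither array. No detected transcription factor reached 1.5-fold.

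Socs1, an inhibitor of the receptor kinases that is itself induced by interferon gamma, was detected on the VDR CON array only. Its signal was 159.6 on the VDR KO array and 203.5 on the VDR CON array, and it was at least 1.15-fold lower on the VDR KO array.

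The deposited intensities keep the background of the array, which shrinks the folds of dim genes. After the background was removed from the non-normalized intensities, 5 of 25 members were at least 1.5-fold apart, counted by their bounds where 1 array did not detect them. Oasl2 was 2.34-fold higher on the VDR KO array, Gbp2 2.11-fold, Igtp 1.55-fold and Mx2 at least 1.58-fold, and Ddx58 was at least 1.87-fold lower. The VDR CON signal of Oasl2 in the deposited intensities, 197.5, lay close to the lowest detected signal of that array, 178.5. On that scale 4.98% of the 9539 detected genes were called higher and 4.11% lower, 9.09% in all. Irgm1 (1.40-fold) and Isg15 (1.43-fold) stayed under the threshold. The medians on that scale were 0.56 for the GTPase genes, 0.10 for the antiviral genes and 0.07 for the regulators.

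**Figure D4:**
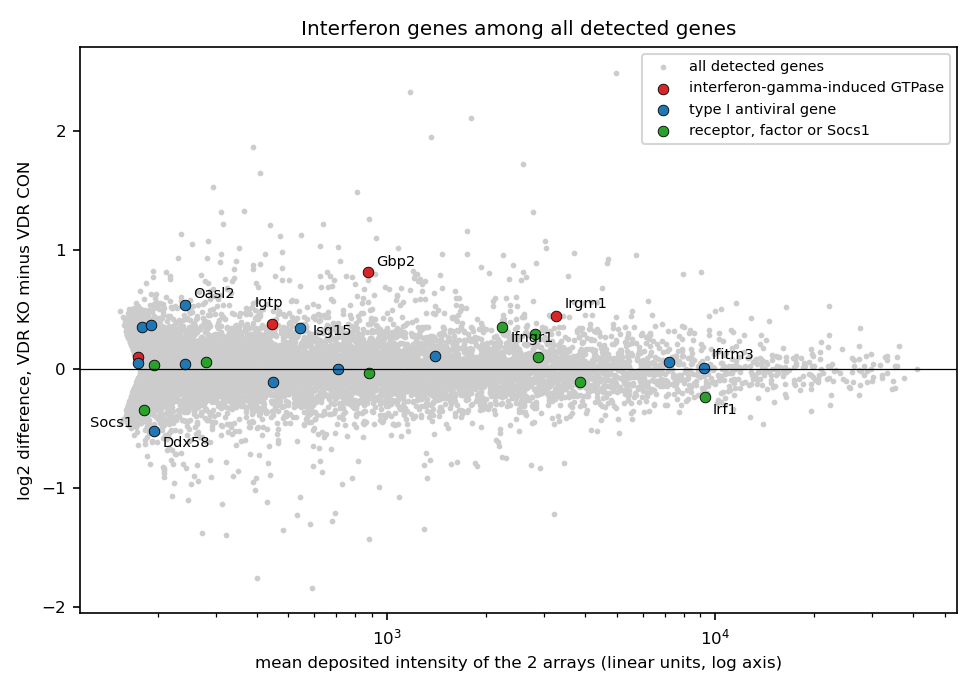
Log2 difference, VDR KO minus VDR CON, against the mean deposited intensity of both arrays (log axis) for 9539 detected genes (grey) and the 25 detected members (coloured by group). Gbp2 (0.81), Irgm1 (0.44) and Oasl2 (0.54) lie above 0.35, percentile 95 of the genes detected on both arrays. Ifitm3 (0.01) lies in the middle of the grey cloud, which reaches up to 2.49.

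The single-gene differences can be read against the spread over all genes. Among the 8393 genes detected on both arrays, the log2 differences had an SD of 0.23, and percentiles 5 and 95 were -0.31 and 0.35. Gbp2, Oasl2, Irgm1 and Igtp lay above that range, while Isg15, Ifitm2 and Ifitm3 lay inside it. This spread is one of genes and not of replicates.

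Other genes of the pathway lay on both sides of 0. Of 106 further genes listed, 94 had a probe and 47 were detected, of which 2 were at least 1.5-fold higher in the deposited intensities, 0 were lower, and the median was 0.04, with 26 above 0 and 21 below; the shares over all detected genes were 1.36% higher and 0.891% lower. After removal of the background 5 were called higher and 1 lower, against 4.98% and 4.11% of all detected genes. The 2 called higher in the deposited intensities were Cd274, the gene of the checkpoint ligand PD-L1, and the chemokine gene Cxcl9. Cd274 had 616.2 on the VDR KO array and 343.0 on the VDR CON array (1.80-fold). Cxcl9 had 365.8 against 243.7 (log2 difference 0.59, 1.5-fold), only just at the threshold. Cd274, Cxcl9 and Irf1 are all inducible by interferon gamma, and the 5 probes of Irf1 ranged from -0.24 to 0.02. A part of interferon gamma in these differences was not tested.

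By role, the list was uneven. Of 15 interferon genes with a probe 1 was detected, Ifna1, with 183.7 on the VDR KO array and 183.2 on the VDR CON array, and Ifng itself, at 164.7 against 153.7, was detected on neither. All 6 further receptors and kinases were detected with a median of 0.17, and the kinase Jak2, which serves the interferon gamma receptor, had 940.8 against 748.1 (0.33). The 3 detected inhibitors were all lower, with a median of -0.15, among them Socs3, a feedback inhibitor of cytokine receptors, with 9965.9 against 12625.7 (-0.34). Of 30 detected induced genes, 18 were higher and 12 lower, with a median of 0.11. In the immunity-related GTPase family, Irgm2, a relative of Irgm1, had 460.9 against 344.7 (0.42), close to Irgm1 itself. Ikbke, a kinase upstream of Irf3, had 321.2 against 437.1 (-0.44), whereas its partner kinase Tbk1 had 3004.0 against 2219.0 (0.44).

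Most detected markers of Langerhans cells, the dendritic cells of the epidermis, also had higher signals on the VDR KO array. Of 13 Langerhans and dendritic cell markers with a probe, 9 were detected and 7 of these were higher on the VDR KO array, with a median of 0.36, 3 of them at least 1.5-fold, against 1.36% of all detected genes. Their summed signal was 10750.8 on the VDR KO array and 7553.6 on the VDR CON array. Such a sum is weighted to bright probes, and most of the gap came from Cd74 (3343.8 against 1959.9) and H2-Ab1. Cd207, which defines Langerhans cells, had 839.2 against 517.0, and the class II gene H2-Ab1 had 2974.8 against 1533.8. Ccr7 (log2 difference 0.04) and Ltc4s (0.05) differed little, and Cd83 (312.0 against 334.1) and Mfge8 (2282.2 against 2352.1) were lower. H2-Aa, Itgax, Cd209a and Ptprc were not detected on either array. Class II genes are themselves inducible by interferon gamma, so the marker list is not separate from the genes studied here.

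T cell markers had a median of -0.08 over 6 detected of 10 (summed signal 2665.3 against 2858.0), and natural killer cell markers a median of -0.31 over 4 of 7 (850.3 against 949.5). Of 5 plasmacytoid dendritic cell markers only Tcf4 was detected, and the defining Siglech was not (142.4 against 154.5). Macrophage and neutrophil markers had a median of 0.21 over 4 detected of 10 (883.0 against 747.9). The keratinocyte markers, 6 of 6 detected, had a median of 0.04 and a summed signal of 115143.0 against 116723.0, with 32867.9 against 33596.5 for the basal keratin gene Krt14. Markers of melanocytes were lower on the VDR KO array in 5 of 5 detected (median -0.74, summed signal 756.2 against 1533.0). Those of dermal fibroblasts were lower in 2 of 2 (321.1 against 534.7) and those of endothelium in 1 of 2 (352.9 against 382.6). Only 1 of the 5 melanocyte markers, Dct (182.4 against 619.5), and 1 of the 2 fibroblast markers, Dcn (181.1 against 348.4), were detected on both arrays. So were 0 of the 2 endothelial, 2 of the 4 natural killer cell, 5 of the 6 T cell and 3 of the 4 macrophage and neutrophil markers. The detection filter set the direction of the markers detected on 1 array only. The part of these other cell types in the GTPase and Cd274 differences was not tested.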

How the data were processed

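Signals are bead array intensities of 25697 probes, and the members and lists were chosen with earlier results of these data known. The deposited non-normalized intensities carry no background subtraction, and the deposited normalized intensities share one distribution across both arrays to within 0.3 units, per the file headers and values; the method is not given in the sources used here, and GenomeStudio 2011.1 is named in the submitters' processing notes. Row by row, the deposited detection p-values bore no relation to signal (rank correlation -0.0073 on the VDR KO array and -0.0053 on the VDR CON array). They were therefore reassigned within each array by signal rank, which left 12147 and 11994 probes detected. Symbols were updated through the gene table of GRCm38.p6, by gene number for 16938 probes, accession for 7420, symbol for 465 and synonym for 553, with 321 kept as filed.

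Differences are log2 ratios of deposited normalized intensities. As the main alternative, background was removed with limma 3.58.1 (R 4.3.3; normexp through the detection p-values, offset 16, then log2 and quantile). The number of arrays limits the precision. Values in full were given for every detected member; among other pathway genes, the rule named those at least 1.5-fold apart, and Ifna1, Ifng, Jak2, Socs3, Irgm2, Ikbke and Tbk1 were chosen after their values were seen.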

Additional observations from a re-analysis of the deposited data

How the results depend on the processing

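The 3 group medians stayed above 0 under all 9 alternatives. The GTPase median ranged from 0.28 with no detection filter to 0.56 with the background removed, the antiviral median from 0.03 to 0.10 and the regulator median from 0.01 to 0.07. The count of members at least 1.5-fold apart was the result that moved. It was 1 in the deposited intensities, 5 with the background removed at an offset of 16 (4 higher and 1 lower) and 2 at an offset of 50 (2 higher). The larger counts follow from the background subtraction, which also moved the count over all genes, from 130 higher and 85 lower to 475 and 392 at an offset of 16 and 269 and 202 at an offset of 50. The log2 difference of Oasl2 was 1.22 at an offset of 16 and 0.83 at an offset of 50. Taking symbols as filed, an alternative chosen after seeing the data, gave a GTPase median of 0.38 without Irgm1. Of 25 detected members, 24 took no opposite sign under any setting that gave a value (Ifitm3 ranged from 0.00 to 0.01), the exception being Eif2ak2 (-0.03 to 0.01). No paired analysis was possible because each group is 1 array. Leaving out a replicate was not possible for the same reason. Signals under 176.6 on the VDR KO array or 178.5 on the VDR CON array were not well above background. This limits what can be said of 19 of the 44 genes, which neither array detected. It also limits the 4 genes detected on the VDR KO array alone and the 2 detected on the VDR CON array alone.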
